A study of Mus musculus with 6 samples.

Results

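The genes described here are 10 transcription factors of the activator protein 1 (AP-1) and immediate early class in injured mouse renal cortex. They were the Fos family (Fos, Fosb, Fosl1, Fosl2), the Jun family (Jun, Junb, Jund), and Atf3, Egr1 and Myc. Each was taken by its exact gene symbol, and together they made up 10 of the 19176 genes in the deposited table. All animals were male C57BL/6J wild-type mice aged 8 weeks at the start, and the injury was unilateral ischemia-reperfusion injury (UIRI), in which blood flow to the left kidney was stopped by a pedicle clamp for 35 min and the right kidney was removed on day 13. The UIRI group received vehicle (ethanol in saline) and the UIRI + BA group received bruceine A (BA), a quassinoid from Brucea javanica, at 1 mg/kg by intraperitoneal injection each day for 14 days. Cortex from the clamped kidney, a mixture of tubules and interstitium, was taken on day 14 and profiled by bulk poly(A) RNA sequencing, with 3 libraries in each group and no sham kidneys analysed here. The comparison asks whether daily BA altered the expression of these factors in the injured kidney.

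AP-1 is a dimer of basic leucine zipper proteins. Jun proteins pair with each other, with Fos proteins or with ATF proteins such as Atf3, whereas Fos proteins mostly need a Jun partner, and the dimers bind short TGA-containing elements in promoters and enhancers. Many of these genes are immediate early genes, whose transcription starts within minutes of growth factor, stress or calcium signals through MAP kinases, serum response factor (SRF) and CREB, without new protein synthesis, and whose mRNAs decay quickly. Egr1 is a zinc finger factor of the same early wave, and Myc is a helix-loop-helix factor that pairs with Max and drives growth and ribosome synthesis. In the kidney, ischemia is known to induce Fos, Jun, Egr1 and Atf3 within hours of reperfusion.

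RefSeq promoter windows of GRCm38.p6, each running from 250 bases before to 50 bases after an annotated start, were matched by symbol for 7 of the 10 factors (Fos, Fosb, Fosl2, Jun, Junb, Jund and Atf3). For Fosl1, Myc and Egr1 no window was used here, which does not show that none is annotated. The 4 windows below belong to the 2 abundant Fos-family members, Jun and Atf3. They are shown for letter matches to AP-1, ATF/CREB or Egr elements and to TATAAA. Whether any factor binds or acts at these matches was not tested. Capitals mark the motifs found by a letter search. In Fos these are TGACGT, the core of a cAMP response element, 66 bases before the start and TATAAA 33 bases before it. In Fosl2 the capitals are an Egr-type element, GCGNGGGCG, 79 bases before the start, and in Jun they are TGACATCA, a variant AP-1/ATF element, 45 bases before the start. In Atf3 they are TGACGT read on the opposite strand, 8 bases before the start. The windows are Fos at chr12:85473640-85473939 (+ strand), Fosl2 at chr5:32136222-32136521 (+ strand), Jun at chr4:95052173-95052472 (- strand) and Atf3 at chr1:191183284-191183583 (- strand), each printed 5′ to 3′ on the strand of the gene:
Fos: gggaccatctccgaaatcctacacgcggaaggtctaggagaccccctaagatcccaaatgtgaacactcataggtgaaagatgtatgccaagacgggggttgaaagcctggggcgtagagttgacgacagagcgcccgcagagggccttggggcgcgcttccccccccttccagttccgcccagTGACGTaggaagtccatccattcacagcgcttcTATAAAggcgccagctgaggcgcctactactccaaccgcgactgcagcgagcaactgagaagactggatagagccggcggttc
Fosl2: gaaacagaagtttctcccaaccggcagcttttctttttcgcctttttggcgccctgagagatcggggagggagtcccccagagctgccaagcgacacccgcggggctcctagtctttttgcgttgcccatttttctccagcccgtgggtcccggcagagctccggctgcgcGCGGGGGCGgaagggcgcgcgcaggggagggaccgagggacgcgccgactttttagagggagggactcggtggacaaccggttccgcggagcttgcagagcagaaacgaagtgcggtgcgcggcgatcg
Jun: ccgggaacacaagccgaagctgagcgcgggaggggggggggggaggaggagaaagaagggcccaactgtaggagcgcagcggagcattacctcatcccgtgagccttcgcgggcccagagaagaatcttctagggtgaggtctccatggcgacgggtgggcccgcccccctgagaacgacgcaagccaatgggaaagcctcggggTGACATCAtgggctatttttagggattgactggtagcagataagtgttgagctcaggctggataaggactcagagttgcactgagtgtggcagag
Atf3: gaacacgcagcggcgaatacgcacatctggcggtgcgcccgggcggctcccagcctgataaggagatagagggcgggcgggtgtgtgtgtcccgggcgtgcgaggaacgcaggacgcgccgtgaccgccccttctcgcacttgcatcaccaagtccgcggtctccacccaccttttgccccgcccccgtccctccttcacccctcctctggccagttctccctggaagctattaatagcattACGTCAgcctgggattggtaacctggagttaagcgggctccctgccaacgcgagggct

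All motifs were searched on both strands except TATAAA, which was searched on the strand of the gene, and TGACGTCA contains TGACGT. Among 32851 windows of the same length, TGANTCA (the AP-1 element) occurred in 7.81%, TGACGTCA in 1.79%, TGACGT in 7.51%, TGACATCA in 3.62%, GCGNGGGCG in 5.55%, TATAAA in 8.32% and the CArG box bound by SRF in 1.63%. Besides the matches printed above, Fosb held GCGNGGGCG 50 bases before its start, and Junb held TATAAA beginning at its annotated start. TGANTCA, TGACGTCA and the CArG box had no match in the 7 windows, which says only that these letters were not there. Fosl1, Myc and Egr1 were not searched, so nothing is shown for them. The windows were tied to the measured genes by symbol alone, because the authors' genome build is not given in the sources used here.

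The libraries held 16510720 to 20313529 reads on genes, except UIRI replicate 3 with 38124164, which was 2.04 times the median of the 5 others. The first principal component (41.8% of variance) placed UIRI replicate 1 at -32.5 and UIRI replicate 2 at -25.5, but UIRI replicate 3 at 11.1, within the 3.11 to 30.5 spanned by the UIRI + BA libraries. Results that rested on UIRI replicate 3 are therefore given with and without it. Values are normalized counts, that is reads divided by a size factor for each library. Differences are log2 fold changes of UIRI + BA over UIRI on the log2(normalized count + 1) scale, each with its standard error (SE) from limma, and the adjusted p is the Benjamini-Hochberg value over all 19176 genes. The labels do not tie libraries to individual animals, and the p-values measure only the spread between these samples.

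Of the 10 factors, Myc was the one with an unadjusted p below 0.05 and the one whose groups did not overlap. It was 1.33-fold higher with BA, at 941 ± 103 (SD, n = 3) against 704 ± 62.7 (SD, n = 3) normalized counts. No factor passed the adjusted threshold, and neither did any gene in the table (0% of 19176 genes by limma). Across the table, 10.3% of genes had an unadjusted p below 0.05, with 5.67% higher and 4.61% lower with BA, so that 1 of 10 factors was close to the background. The groups did not overlap for 14.4% of all genes, 7.45% being higher with BA. On the same libraries DESeq2 gave 213 genes and edgeR gave 0 past the adjusted threshold, neither set including any of the 10 factors. The fold change was positive for 6 factors and negative for 4, with a median of 0.09 against -0.01 over all genes. In bulk cortex, fewer cells of a type and less RNA per cell cannot be told apart.

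**Figure D1:**
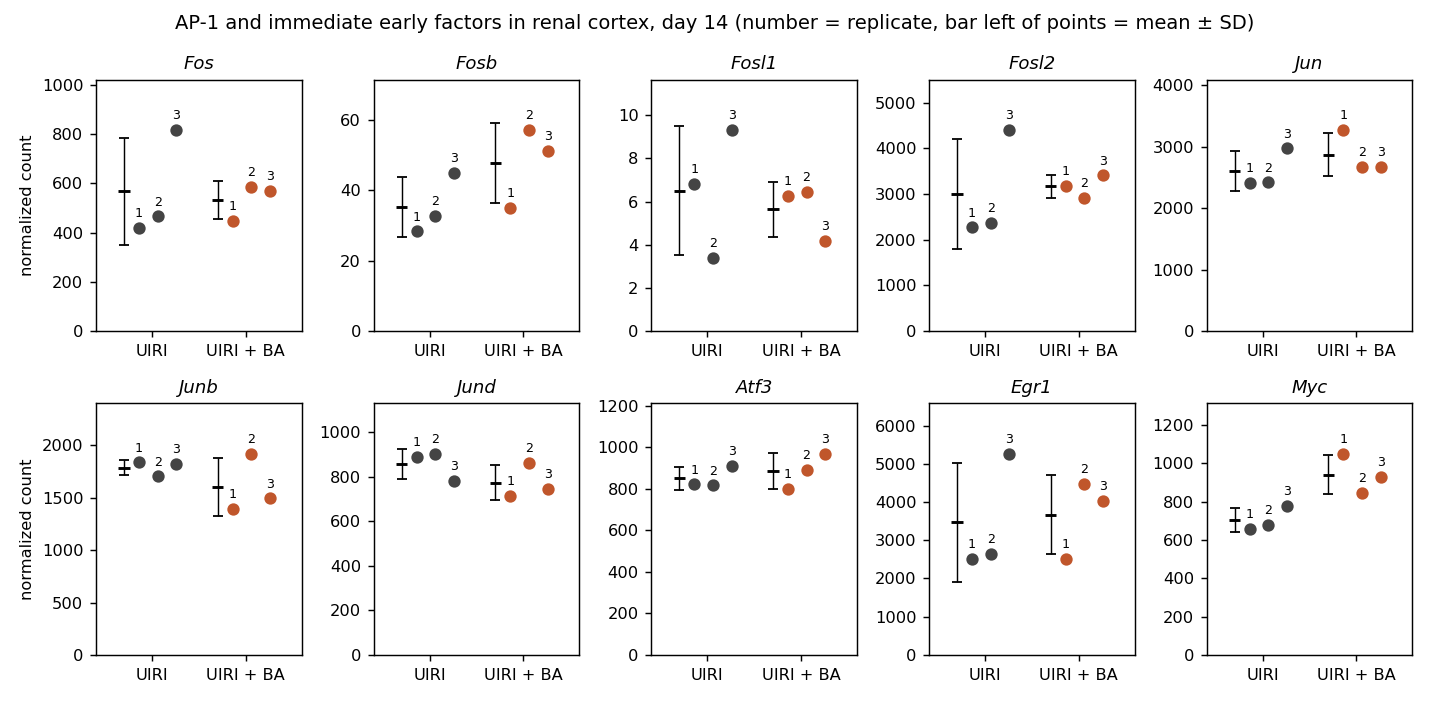
Normalized count of each factor in the 3 UIRI libraries (grey) and the 3 UIRI + BA libraries (orange), with each axis starting at 0, replicate numbers above the points and the mean ± SD to their left. UIRI replicate 3 stands above the other UIRI libraries for Fos, Fosl2 and Egr1, and the groups are separate for Myc.

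Divided by exon length (union of exons in GENCODE M21), 8 of the 10 factors were well expressed and 2 were rare. Jun was the highest at 859 ± 104 (SD, n = 6) normalized counts per kb of exon, followed by Egr1 at 796 ± 264 and Junb at 737 ± 91.0. The ranges of these 3 overlapped, so their order was not resolved. Jund followed at 488 ± 47.7, and each of its libraries was below each Junb library. Atf3 at 403 ± 31.0 overlapped Jund, and Fosl2 at 319 ± 80.8, Myc at 303 ± 55.5 and Fos at 234 ± 62.3 per kb overlapped each other. Fosb at 6.65 ± 1.81 and Fosl1 at 2.98 ± 1.03 per kb were far below the rest, so that Fosl2 and Fos made up nearly all Fos-family mRNA at this time. In the annotation, 5 factors overlap a gene on the opposite strand (Fosl1 with Ccdc85b, Jun with Junos, Junb with Prdx2, Jund with Gm11175, Atf3 with Gm24748). Whether counting used strand is not stated, so reads of these pairs could not be told apart.

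**Figure D2:**
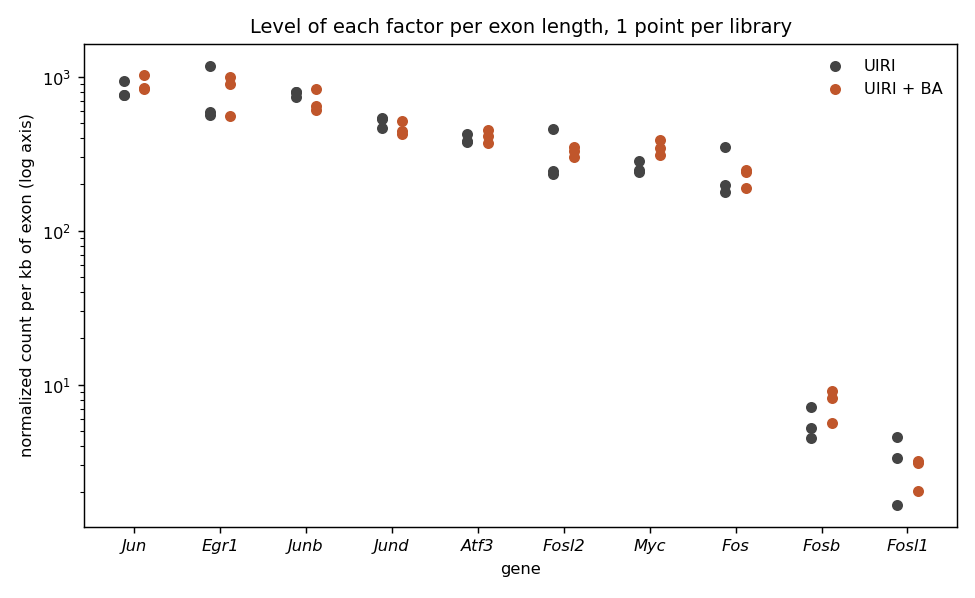
Normalized count per kb of exon (log axis) for each factor, 1 point per library, UIRI in grey and UIRI + BA in orange, ordered by the mean of the 6 libraries. Jun, Egr1 and Junb are the highest, and Fosb and Fosl1 lie far below the other 8.

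Fos, the founding partner of Jun in AP-1, showed no separation of the groups. Its normalized counts were 419, 466 and 816 in UIRI replicates 1 to 3. In UIRI + BA replicates 1 to 3 they were 446, 586 and 568. UIRI replicate 3 was the highest of all, at 1.84 times the mean of the other UIRI libraries, UIRI replicate 1 was the lowest, and UIRI replicate 2 lay within the range with BA. The log2 fold change was -0.03 (SE 0.23), adjusted p = 0.964 by limma, with a 95% interval of -0.55 to 0.48. Without UIRI replicate 3 it was 0.26, adjusted p = 0.242, and without UIRI + BA replicate 1 it was 0.089, so the sign of the Fos difference was not stable to leaving out a library.

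Fosl2 (Fra-2), with Fos one of the 2 abundant Fos-family members, followed the same pattern. Its normalized counts were 2268, 2361 and 4399 with UIRI. With UIRI + BA they were 3171, 2916 and 3407. All 3 libraries with BA were above UIRI replicates 1 and 2 and below UIRI replicate 3, which stood at 1.90 times the mean of the other UIRI libraries. The log2 fold change was 0.14 (SE 0.22), adjusted p = 0.827 by limma. Without UIRI replicate 3 it was 0.45 (SE 0.08), adjusted p = 0.0215, in a fit in which 5.02% of all genes passed the adjusted threshold. Without UIRI replicate 1 the value turned to -0.029.

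Fosb, a Fos paralog that is also made as the stable deltaFosB form, had few reads, 25 to 82 per library. Its normalized counts were 28.3, 32.6 and 44.9 with UIRI. With UIRI + BA they were 35.1, 57.1 and 51.1. UIRI + BA replicates 2 and 3 were the highest of the 6, and replicate 1 lay among the UIRI libraries. The log2 fold change was 0.42 (SE 0.26), as large as that of Myc, but its 95% interval ran from -0.17 to 1.01 (adjusted p = 0.586 by limma). Without UIRI + BA replicate 1 it was 0.63 and without UIRI replicate 1 it was 0.28. Fosl1 (Fra-1), a factor linked to AP-1 activity in proliferating and invading cells, had 3 to 17 reads per library, and its normalized counts were 3.37 to 9.31 with UIRI and 4.17 to 6.46 with BA. A difference in Fosl1 was not detectable at this depth (log2 fold change -0.11, 95% interval -1.12 to 0.90).

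Jun, the main transactivating partner in AP-1, had normalized counts of 2419, 2423 and 2976 with UIRI. With UIRI + BA they were 3275, 2670 and 2680. Only UIRI replicate 3 overlapped the BA libraries, and UIRI + BA replicate 1 was the highest. The log2 fold change of Jun was 0.14 (SE 0.11), adjusted p = 0.664 by limma, and 0.24 (adjusted p = 0.159) without UIRI replicate 3. Without UIRI + BA replicate 1 it was 0.045.

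Junb and Jund, the Jun paralogs that often restrain Jun-driven proliferation, had values on the other side of 0. Junb was at 1838, 1704 and 1823 normalized counts with UIRI. With UIRI + BA it was at 1393, 1921 and 1494. UIRI + BA replicates 1 and 3 were the lowest and replicate 2 was the highest of the 6, giving a log2 fold change of -0.17 (SE 0.12), adjusted p = 0.618. Jund was at 887, 903 and 780 with UIRI and at 713, 860 and 745 with UIRI + BA, again with BA replicates 1 and 3 lowest. The Jund log2 fold change was -0.15 (SE 0.10), adjusted p = 0.612. Neither passed the test. Without UIRI + BA replicate 2 the Junb value was -0.31, with an unadjusted p below 0.05, and without UIRI + BA replicate 1 it was -0.077. The Jund value without UIRI + BA replicate 1 was -0.094 and without UIRI + BA replicate 2 it was -0.23.

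Atf3, a stress-induced factor that pairs with Jun and often represses inflammatory genes, varied least. Its normalized counts were 821, 817 and 912 with UIRI. With UIRI + BA they were 799, 892 and 969. The groups overlapped, and the log2 fold change was 0.06 with a 95% interval of -0.16 to 0.27.

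Egr1, the zinc finger factor that marks recent growth factor or stress signalling, varied most among the abundant members. Its normalized counts were 2512, 2636 and 5265 with UIRI. With UIRI + BA they were 2503, 4467 and 4035. UIRI replicate 3 was the highest, at 2.05 times the mean of the other UIRI libraries, while UIRI + BA replicate 1 was level with UIRI replicates 1 and 2. The log2 fold change was 0.12 (SE 0.29) with a 95% interval of -0.54 to 0.78 (adjusted p = 0.890 by limma). Without UIRI replicate 3 it was 0.47, adjusted p = 0.185, and without UIRI replicate 1 it was -0.066.

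Myc was the single factor whose libraries with BA were all above all libraries without it. Its normalized counts were 658, 678 and 775 with UIRI. With UIRI + BA they were 1050, 844 and 930. The lowest BA library, replicate 2, exceeded the highest UIRI library, replicate 3, and counts rested on 581 to 1416 reads per library. The log2 fold change was 0.42 (SE 0.11) with a 95% interval of 0.18 to 0.66 (adjusted p = 0.291 by limma). By p-value Myc stood at place 215 among 19176 genes. The exact two-sided permutation test gave p = 0.1, the smallest that 3 against 3 libraries allow. Leaving out 1 library at a time kept the value between 0.34 and 0.49. Myc passed the adjusted threshold without UIRI replicate 3 (adjusted p = 0.0327 by limma), in a fit in which 5.02% of all genes did. Without any other single library it did not pass, with an adjusted p of 0.406 or more by limma. DESeq2 gave 0.41 with an adjusted p = 0.0686 and edgeR gave 0.41 with an adjusted p = 0.295.

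**Figure D3:**
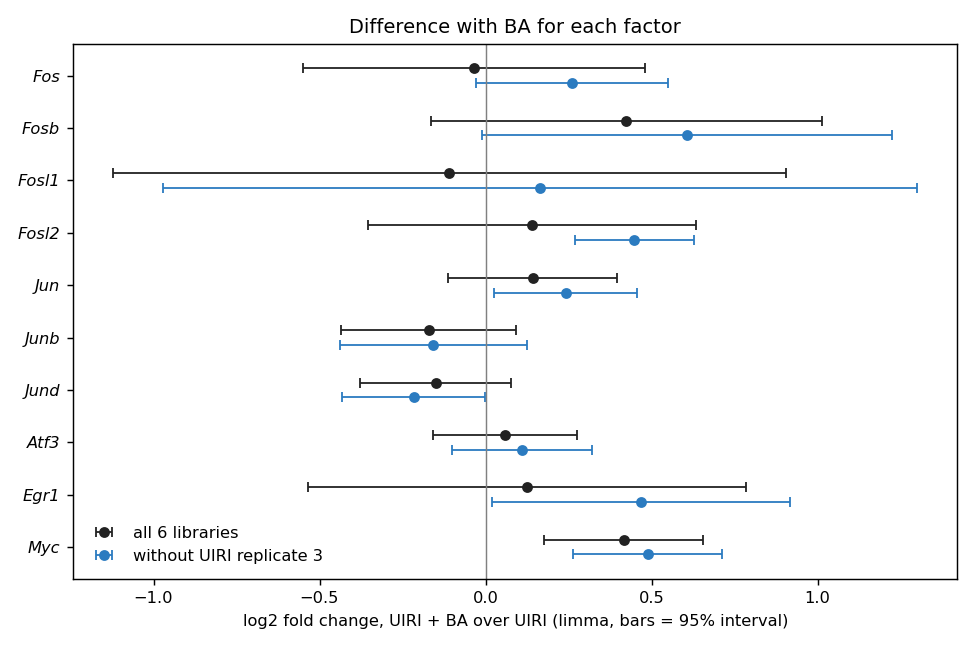
Log2 fold change of each factor, UIRI + BA over UIRI, with its 95% interval from limma, for all 6 libraries (black) and without UIRI replicate 3 (blue). With all libraries the interval lies wholly above 0 for Myc, at 0.18 to 0.66, and crosses 0 for the other 9.

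One library set much of this picture. UIRI replicate 3 was the highest of the 6 libraries for 4 of the 10 factors (Fos, Fosl1, Fosl2, Egr1), for 22 of 35 other immediate early genes (62.9%), and for 16.5% of all genes. It exceeded the mean of UIRI replicates 1 and 2 by over 1.5 times for the same 4 factors and for 11 of the 35 other immediate early genes (31.4%), against 8.03% of all genes. Among the 35 the largest such ratio, 2.34, was that of Dusp1, a phosphatase that switches MAP kinases off, whose normalized counts were 879, 848 and 2022 with UIRI and 953, 1326 and 1401 with UIRI + BA. Nr4a1, an orphan nuclear receptor, was at 326, 327 and 750 with UIRI and at 236, 459 and 431 with BA. For both, UIRI replicate 3 was above every other library. UIRI + BA replicate 1 was near UIRI replicates 1 and 2 for Dusp1 and was the lowest of the 6 for Nr4a1. The part of depth or of tissue handling in this library was not tested. Without UIRI replicate 3, 5 of the 10 factors had an unadjusted p below 0.05, Fosl2, Jun, Egr1 and Myc with positive and Jund with negative fold changes. In that fit 25.2% of all genes did so. The members past the adjusted threshold there were Fosl2 and Myc, beside 5.02% of all genes, and the median over the 10 was 0.25.

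**Figure D4:**
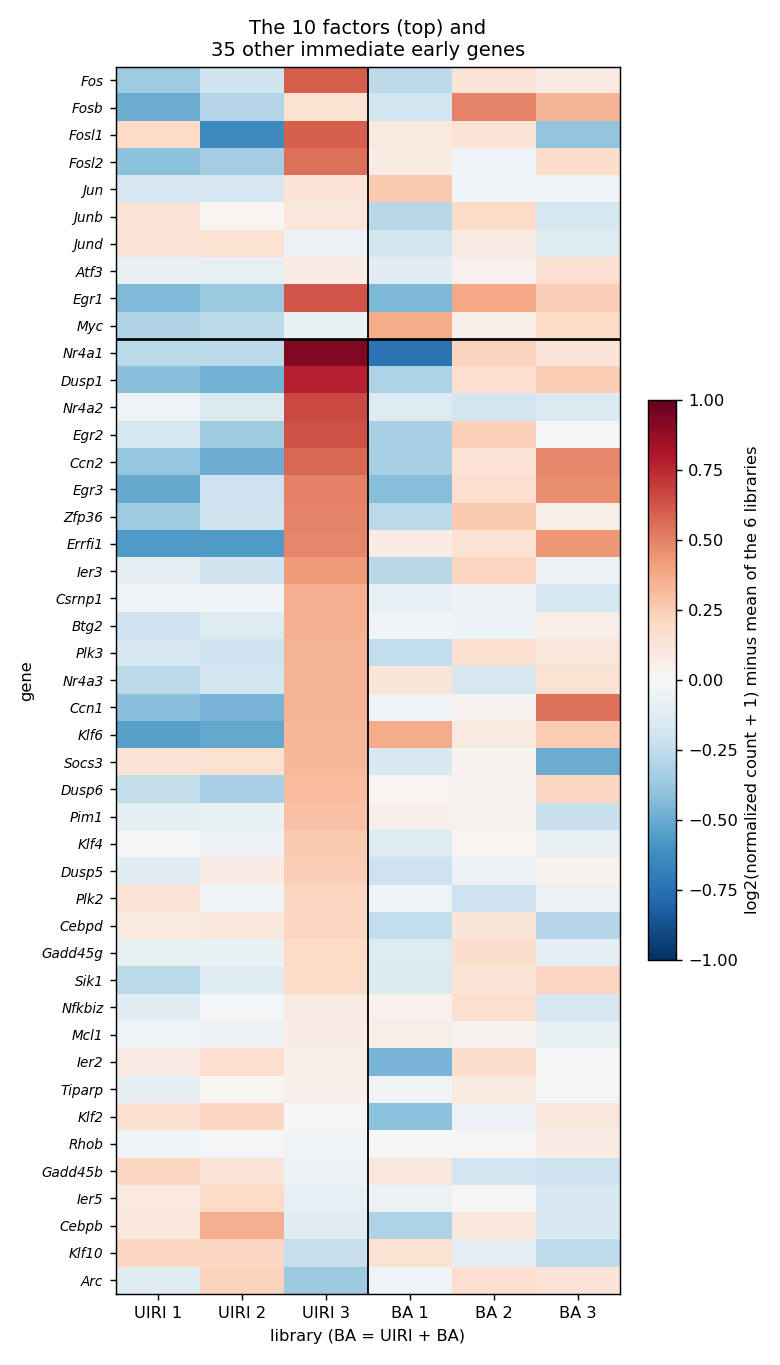
Deviation of log2(normalized count + 1) from the gene's mean over the 6 libraries (red above, blue below) for the 10 factors and 35 other immediate early genes, the latter ordered by their value in UIRI replicate 3. That library is the highest of the 6 for 22 of the 35 genes and for 4 of the 10 factors.

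The other immediate early genes were 35 in number, 16 with positive and 19 with negative fold changes and a median of -0.04 against -0.01 for all genes. At an unadjusted p below 0.05 there was 1 in the positive direction and 3 in the negative one, beside 5.67% and 4.61% of all genes, and none passed the adjusted threshold. The total was 12 of 35 without UIRI replicate 3 (8 positive and 4 negative), beside 25.2% of all genes. Klf6, an injury-induced Kruppel-like factor, was at 4579, 4671 and 8402 normalized counts with UIRI and at 8605, 7096 and 7960 with BA. UIRI replicate 3 lay within the BA range, and the log2 fold change was 0.48 (SE 0.21), adjusted p = 0.484 by limma. Without that library it was 0.77, adjusted p = 0.0065. Errfi1, a feedback inhibitor of the EGF receptor, was at 3306, 3296 and 6865 with UIRI and 5155, 5379 and 6613 with BA, UIRI replicate 3 being the highest of the 6. Socs3, the feedback inhibitor of cytokine signalling through STAT3, was at 1830, 1843 and 2089 with UIRI and at 1493, 1688 and 1177 with BA. Its groups did not overlap, and its log2 fold change was -0.42 (SE 0.13), adjusted p = 0.359. Cebpd and Plk2 were the other 2 with a negative fold change and an unadjusted p below 0.05, at -0.28 and -0.21.

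AP-1 bZIP partners, the further zipper proteins that can dimerize with Jun or Fos, numbered 14, with 8 positive and 6 negative fold changes and a median of 0.06. Creb5 at 0.31 and Maf at 0.21 had an unadjusted p below 0.05 and a positive sign. Counting both directions, 3 of the list were below that p, beside 10.3% of all genes, and none passed the adjusted threshold. Leaving out UIRI replicate 3, the number was 10 of 14 (5 positive and 5 negative), beside 25.2% of all genes in either direction. The upstream group of SRF cofactors and MAP kinases, 24 genes, was evenly split at 13 positive and 11 negative, with a median of 0.02. Map3k5, a stress kinase that feeds JNK and p38, was at 0.22, and Elk3, an SRF cofactor, was at -0.20, and these were the 2 with an unadjusted p below 0.05, beside 10.3% of all genes. There were 10 of 24 without UIRI replicate 3 (6 positive and 4 negative), beside 25.2%. Srf itself was at 414, 417 and 530 normalized counts with UIRI and 475, 491 and 559 with BA, a log2 fold change of 0.17 with overlapping groups (adjusted p = 0.630).

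AP-1 target genes, 16 in all, were split 8 and 8 with a median of 0.00. With an unadjusted p below 0.05, 5 had a negative fold change and 1 a positive one, beside 4.61% and 5.67% of all genes, and none passed the adjusted threshold in limma. When UIRI replicate 3 was left out there were 5 negative and 4 positive, beside 25.2% of all genes in either direction, and the median was 0.06. Mmp9, a gelatinase of neutrophils and macrophages, was at 263, 238 and 223 normalized counts with UIRI. With UIRI + BA it was at 135, 157 and 127. Every BA library was below every UIRI library, and the log2 fold change was -0.79 (SE 0.13), adjusted p = 0.225 by limma, with DESeq2 giving an adjusted p = 0.0027. Mmp3 (stromelysin) was at -0.46, Vim (vimentin) at -0.30, Timp1 (a metalloproteinase inhibitor) at -0.29 and Mmp12 (macrophage elastase) at -0.20. Ccl2, the monocyte chemoattractant, had a positive value, at 1708, 2011 and 2122 with UIRI and 2131, 2909 and 2403 with BA, a log2 fold change of 0.34 (SE 0.12), adjusted p = 0.433. Markers of leukocytes, fibroblasts and other cell types are given beside these target genes. All 9 leukocyte markers and all 7 fibroblast markers had negative fold changes, with medians of -0.26 and -0.32. Of these, 2 and 4 had an unadjusted p below 0.05, beside 4.61% of all genes. All 5 endothelial, 4 smooth muscle and 7 urothelial markers were negative too, as were 9793 of all 19176 genes, whereas all 10 proximal tubule markers were positive. The summed leukocyte markers were 73943 to 102809 normalized counts with UIRI and 70063 to 81959 with BA, and these ranges overlapped. The fibroblast sums were 70307 to 86197 with UIRI and 50534 to 69039 with BA, without overlap. The part of cell makeup in the values of these targets was not tested.

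Egr1 corepressors and targets, 10 genes, had 4 positive and 6 negative fold changes and a median of -0.08. Fn1 (fibronectin), a matrix gene and a listed target, was at 21066, 21277 and 16898 normalized counts with UIRI and 14725, 16892 and 15496 with BA, a log2 fold change of -0.32 (SE 0.11), adjusted p = 0.403. UIRI replicate 3 was just above the highest BA library, so the groups did not overlap but came close. Nab2, a corepressor that Egr1 itself induces, was at -0.24 (adjusted p = 0.534), and Tgfb1 at -0.16 (adjusted p = 0.552). Fn1 was the one gene of the 10 with an unadjusted p below 0.05, beside 10.3% of all genes, and without UIRI replicate 3 there were 6, beside 25.2%.

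In the Myc network, the 12 dimerization partners and relatives of Myc, 6 fold changes were positive and 6 negative, with a median of 0.01. Max, the obligate partner of Myc, was at 2003, 2045 and 2035 normalized counts with UIRI and 2091, 2013 and 1910 with BA, a log2 fold change of -0.02 (SE 0.07). Mlxipl (ChREBP), the glucose-responsive factor of liver and proximal tubule, was at 0.47 (SE 0.12), adjusted p = 0.284 by limma. Mycn, at 213, 216 and 166 with UIRI and 168, 148 and 152 with BA, had the opposite sign to Myc, -0.34 (SE 0.14), adjusted p = 0.472. Of 23 Myc target genes, which include nucleolar, ribosome synthesis, polyamine and cell cycle genes, 16 had positive and 7 negative fold changes, with a median of 0.06. Hspd1, a mitochondrial chaperone, was the one with an unadjusted p below 0.05, at 3821, 3598 and 4931 with UIRI and 5855, 4501 and 5380 with BA (log2 fold change 0.35, SE 0.14, adjusted p = 0.448). Odc1, the rate-limiting enzyme of polyamine synthesis, was at 0.17 and Ncl (nucleolin) at 0.02, both with overlapping groups. In all, 1 of the 23 targets and 2 of the 12 network genes had an unadjusted p below 0.05, beside 10.3% of all genes. When UIRI replicate 3 was left out these were 5 and 3, beside 25.2%.

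**Figure D5:**
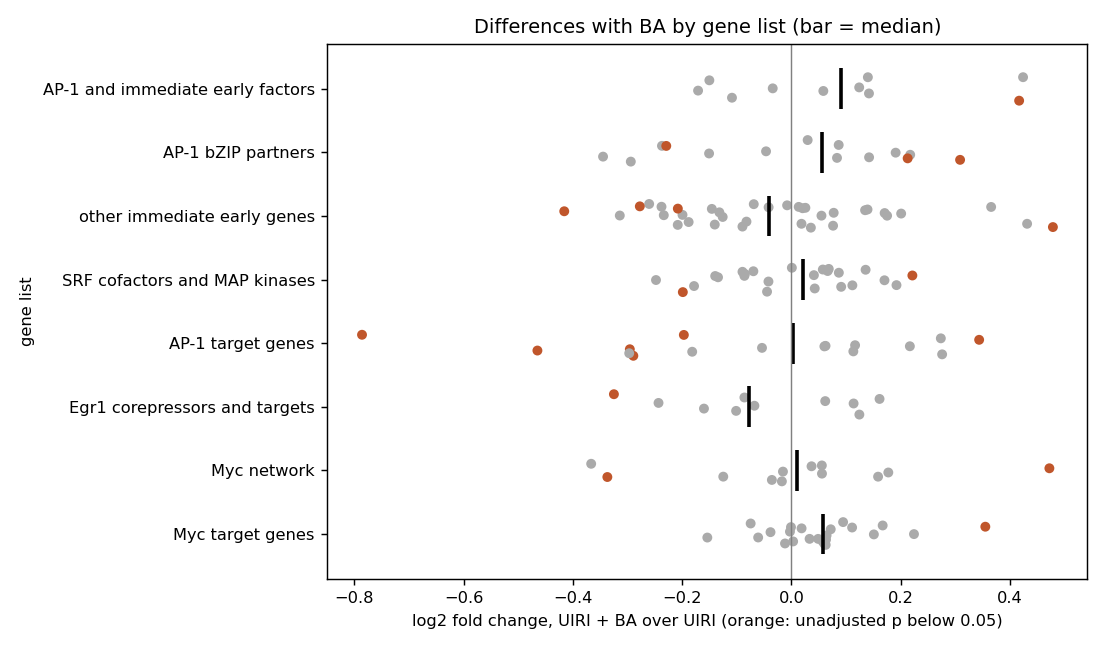
Log2 fold change, UIRI + BA over UIRI, of each gene in the 10 factors and the 7 related lists, with orange points for an unadjusted limma p below 0.05 and a bar at each list's median. The medians lie between -0.08 and 0.09, and Mmp9 at -0.79 is the lowest point.

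Tubular and urothelial markers also differed between the libraries. All 10 proximal tubule markers had positive fold changes with a median of 0.71, 9 of them with an unadjusted p below 0.05. Across all genes 5.67% were higher with BA at that p. The mean log2 value of these markers was 10.42, 10.59 and 11.12 with UIRI against 11.42, 11.20 and 11.54 with BA. Myc had the same order of the groups, with UIRI replicate 3 highest of its group in both. The 7 urothelial markers summed to 184, 164 and 621 with UIRI and 71.4, 79.7 and 389 with BA, so replicate 3 of each group was high and all 7 were highest in UIRI replicate 3. Of the 9 injured tubule markers, Havcr1 (0.42), Vcam1 (0.35) and Krt20 (0.41) had a positive value and Lcn2 (-0.51), Krt18 (-0.39) and Cdkn1a (-0.37) a negative one with an unadjusted p below 0.05. At that p, 5.67% of all genes were higher and 4.61% lower with BA. No marker passed the adjusted threshold. The part of cell makeup in the values of Myc or of the Fos family was not tested.

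Across the 6 libraries some of the factors varied together, given here as description because the points share group and library. Fos varied with Egr1 (Pearson r = 0.95, n = 6 libraries) and with Fosl2 (r = 0.85), all 3 being highest in UIRI replicate 3. Myc varied with Jun (r = 0.80) and inversely with Jund (r = -0.88) and Junb (r = -0.72). Egr1 also varied with Fosb (r = 0.85) and Atf3 (r = 0.84), and Jun inversely with Jund (r = -0.86). These pairs did not form separate sets, since Fosl2 also varied with Jun (r = 0.71). Among 12648 genes with a mean of at least 100 normalized counts, those most like Fos were Pawr, Smtn, Zfp36, Aasdhppt and Ppfibp1, with r from 0.975 to 0.986. Zfp36, which encodes the mRNA-destabilizing protein tristetraprolin, is itself an immediate early gene and was at 1386, 1548 and 2508 with UIRI and 1472, 2125 and 1851 with BA. Those most like Jun were N4bp2, Dcp2, Fam199x, Mtf1 and Kat6a (r from 0.996 to 0.999). Among those most like Myc were Mcur1, Brip1os, 2900089D17Rik and Vdr, the vitamin D receptor (r from 0.992 to 0.995).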

How the data were processed

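Cortex RNA of 3 UIRI and 3 UIRI + BA kidneys was sequenced after poly(A) selection. Per the study's methods the authors aligned reads with HISAT2 and tested with DESeq2; the genome build and annotation are not given in the sources used here. The deposited table gives a signal for each gene and library, the read count divided by a size factor: all values (100%) were whole multiples of 1 step per library within 0.1, so reads were recovered. The authors' columns of log2 fold change and p-value, and their enrichment tables, hold their own comparisons and were not used. No column of per-library values was left out (0).

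log2(normalized count + 1) of all 19176 genes was compared between groups with limma 3.58.1 (R 4.3.3, empirical Bayes with trend, no covariate), with Benjamini-Hochberg adjustment at 0.05. The unit differed from the raw counts that the design had allowed for, so edgeR 4.0.16 (quasi-likelihood) and DESeq2 1.42.0 ran on the recovered reads as alternatives. Also tried were quantile, upper quartile and TMM scaling, a pseudocount of 0.1, a mean of at least 10, a replicate block and leaving out each library. Simulated data served as a check of the scripts. All 10 factors are named, and from each related list those with an unadjusted p below 0.05, plus genes of note chosen after their values were seen (Dusp1, Nr4a1, Errfi1, Srf, Nab2, Tgfb1, Max, Odc1, Ncl, Zfp36). Some genes that this rule selects are not reported here. The factors and lists were chosen with earlier results of these data known. Lengths and overlaps come from GENCODE M21. Intervals are at 95%.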

Additional observations from a re-analysis of the deposited data

How the results depend on the processing

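Changes of scaling, pseudocount, filter or tool turned no sign of any of the 10 factors and moved neither count of factors past a threshold, whereas leaving out a single library did. The number of factors with an unadjusted p below 0.05 ranged from 1 to 5 when 1 library was left out, and the number past the adjusted threshold from 0 to 2, the highest of both being without UIRI replicate 3. Over all genes the count with an unadjusted p below 0.05 was 1971 with all libraries, fell to 808 when UIRI replicate 1 was left out and reached 4838 when UIRI replicate 3 was left out. Without UIRI replicate 1 the 7 related lists held 0 to 2 such genes each, and without UIRI replicate 3 they held 3 to 12. The sign turned within the leave-one-out range for Fos (-0.22 to 0.26, positive without UIRI replicate 3 or UIRI + BA replicate 1), Fosl1 (-0.45 to 0.16), Fosl2 (-0.029 to 0.45), Egr1 (-0.066 to 0.47, negative without UIRI replicate 1, UIRI replicate 2 or UIRI + BA replicate 2) and Atf3 (-0.0081 to 0.13), and the cause was not tested. Myc kept its sign and an unadjusted p below 0.05 throughout. Fosl1 could not be fitted under the filter on low values or in edgeR.

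Libraries of the 2 groups share replicate numbers. After each gene's group mean was subtracted, same-numbered libraries correlated at -0.24, 0.30 and 0.15 over 17249 genes. Not every UIRI library correlated best with its own number. With so few libraries in each group, these values cannot decide whether the numbers pair them. With the replicate block, 1 factor (Myc, 0.42, adjusted p = 0.217) had an unadjusted p below 0.05, as did 2106 genes, and 6 genes passed the adjusted threshold. DESeq2 gave 1511 genes at an unadjusted p below 0.05 and edgeR 1703. Factors with under 100 reads, Fosb and Fosl1, are limited by depth.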
